A study of Rattus norvegicus with 6 samples.

Results

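The genes described here are 10 genes of the endoplasmic reticulum (ER) stress response and the integrated stress response, read by symbol from a table of 16209 genes in rat liver. They were listed by name as Atf4, Atf5, Ddit3, Xbp1, Trib3, Asns, Chac1, Sesn2, Hspa5 and Herpud1. All 10 were found, and all 10 were among the 14639 genes with enough reads to test. RNA was sequenced in 6 libraries from liver of fibrotic rats. Of these, 3 were labelled as vehicle and 3 as treated, at a dose of 10 mg/kg/day, with ginkgetin, which is a biflavone found in plants. The labels do not say whether each library came from a separate animal. All rats were fibrotic, so the vehicle group is fibrotic liver without ginkgetin, not healthy liver. The labels name neither the strain, sex and age of the rats nor the length of treatment, nor the agent that caused the fibrosis. The comparison asks how ginkgetin changes gene expression in the fibrotic liver.

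The integrated stress response begins when a kinase such as PERK, which senses misfolded protein in the ER, or GCN2, which senses uncharged tRNA, phosphorylates the translation factor eIF2. Most protein synthesis then slows, while the mRNA of the transcription factor ATF4 is translated more, so much of the control of ATF4 lies outside its mRNA level. ATF4 switches on genes for amino acid supply, tRNA charging and feedback, and with CHOP, the product of Ddit3, genes of cell death. In parallel the ER sensors IRE1 and ATF6 act through the transcription factors XBP1 and cleaved ATF6 on chaperones and on ER-associated degradation. Hepatocytes secrete large amounts of protein and keep these systems active at rest. The values here are of whole genes, so spliced and unspliced Xbp1 cannot be told apart.

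Promoter sequences are shown for 4 of these genes because they show the same DNA element in front of Trib3 and Chac1, whose mean levels differed in opposite directions. Each is the 250 bases before the annotated start, 5′ to 3′ on the strand of the gene, from RefSeq on the rat assembly GRCr8, which is not the assembly used for the reads. They lie at chr3:161275534-161275783 on the minus strand for Trib3, chr3:126795881-126796130 on the plus strand for Chac1, chr19:10614708-10614957 on the minus strand for Herpud1 and chr3:38452766-38453015 on the plus strand for Hspa5. Capitals mark matches to the motifs named after the sequences.
Trib3: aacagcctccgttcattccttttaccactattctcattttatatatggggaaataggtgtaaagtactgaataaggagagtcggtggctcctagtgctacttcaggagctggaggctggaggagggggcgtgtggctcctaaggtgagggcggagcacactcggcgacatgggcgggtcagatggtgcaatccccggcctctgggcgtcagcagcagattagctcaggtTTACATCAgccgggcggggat
Chac1: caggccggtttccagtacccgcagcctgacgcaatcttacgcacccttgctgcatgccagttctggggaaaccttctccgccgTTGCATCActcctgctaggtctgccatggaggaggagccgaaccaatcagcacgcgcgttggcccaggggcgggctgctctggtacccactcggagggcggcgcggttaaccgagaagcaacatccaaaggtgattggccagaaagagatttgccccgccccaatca
Herpud1: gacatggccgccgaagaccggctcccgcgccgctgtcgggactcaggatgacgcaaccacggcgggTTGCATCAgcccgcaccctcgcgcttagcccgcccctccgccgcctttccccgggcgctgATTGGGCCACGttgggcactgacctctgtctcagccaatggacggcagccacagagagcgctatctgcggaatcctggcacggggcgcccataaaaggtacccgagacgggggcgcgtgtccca
Hspa5: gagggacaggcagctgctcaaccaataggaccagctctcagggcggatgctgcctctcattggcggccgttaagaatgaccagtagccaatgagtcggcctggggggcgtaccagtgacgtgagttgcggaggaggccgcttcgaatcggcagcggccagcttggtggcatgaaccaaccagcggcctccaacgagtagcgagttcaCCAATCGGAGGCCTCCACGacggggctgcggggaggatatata
In Trib3, Chac1 and Herpud1 the first capitals are, on the opposite strand, the CARE motif TGATGNAA, the core of the element that ATF4 binds with a C/EBP partner. It starts 21 bases before the start of Trib3, 167 before Chac1 and 184 before Herpud1. The capitals of Hspa5, 43 to 25 bases before its start, are the ER stress element ERSE, read as CCAAT, 9 bases and CCACG, which ATF6 binds with the factor NF-Y. The second capitals of Herpud1, 124 to 114 bases before its start, are ERSE-II, read as ATTGG, 1 base and CCACG, a motif added after the promoters had been read. Windows of 300 bases (250 before and 50 after the start, both strands) held CARE in 3 of the 10 genes and in 3.98% of 33469 rat promoters, and ERSE in 2 of the 10, Hspa5 and Xbp1, and in 0.0657%. ERSE-II was found in 1 of the 10 and in 0.0508% of promoters, and the XBP1 motif UPRE, TGACGTGG, in 0 of the 10 and in 0.595%. The motifs do not overlap each other in these windows. A match is a description of the letters in the window.

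Each library held between 13372367 and 14933853 reads assigned to genes, and the values are normalized reads. Changes are differences of mean log2(value + 1), ginkgetin minus vehicle, so that changes come out smaller than they are where reads are few. The authors' scaling left 8265117 normalized reads in all in vehicle replicate 3, against 15863575 and 11768875 in vehicle replicates 1 and 2. The ginkgetin libraries held 16250450.5 to 16991873. Levels and overlaps between groups are given on this scaling unless another is named. Cell type markers set vehicle replicate 3 apart from the rest. The summed level of 10 hepatocyte markers was 446824 normalized reads in it, against 1636720 and 2276900 in the other vehicle libraries and 1849460 to 2916170 with ginkgetin. Part of this gap is its lower normalized total. As a share of each library, Alb alone made up 2.89% there, against 9.44% and 7.77% in vehicle replicates 1 and 2. With ginkgetin it made up 6.56% to 12.1%. The 8 stellate cell and myofibroblast markers of vehicle replicate 3 summed to 122042, against 11311 and 13281 in the other vehicle libraries and 3267 to 6278 with ginkgetin. Its 8 macrophage markers summed to 25968, against 2973 to 6649 in the other 5 libraries, and 16728 of this sum was Gpnmb. The other 7 summed to 9241 in it and to 2245 to 6568 elsewhere, while 2 of them, the resident macrophage markers Clec4f (312) and Marco (40.5), named after their values were seen, were at their lowest of the 6 libraries there. The rest of the list was at its highest there, among them Cd163, at 1207 against 94.0 to 450 elsewhere. In whole liver, fewer cells of a type and less RNA per cell cannot be told apart. The part of these marker levels in the results was not tested. Changes without vehicle replicate 3 are given with each stress-response gene or pathway list described below.

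No gene of the 10 passed a Benjamini-Hochberg adjusted p of 0.05 in limma, where 2 of 14639 genes, 0.0137%, passed. With ginkgetin 8 of the 10 had a higher mean and 2, Asns and Chac1, a lower one, at a median change of 0.69 against -0.02 over all tested genes, and of 0.48 against -0.01 without vehicle replicate 3. At an unadjusted p below 0.05 in limma, 3 of the 10 were higher (Trib3, Herpud1 and Xbp1), where 7% of all tested genes were, and 1 was lower (Chac1), where 13.2% were. With equal library totals in place of the authors' scaling, 1 was higher and 2 lower, and over all genes 347 were higher and 2955 lower in place of 1025 and 1938. On the authors' scaling, the ginkgetin libraries lay above the vehicle libraries without overlap in 4 of the 10 genes, as in 11.4% of tested genes. These were Atf4, Atf5, Xbp1 and Trib3. In 0 of the 10 the ginkgetin libraries lay below, as in 16.1%. In reads before scaling, the groups of Atf5 and Trib3 also did not overlap, while those of Atf4 and Xbp1 did. The count at an unadjusted p below 0.05, in either direction, was 4 with all libraries and also without vehicle replicate 3. Over all tested genes it was 2963 of 14639 and 2208 of 14332. Leaving out vehicle replicate 1 gave 7, vehicle replicate 2 gave 2, ginkgetin replicate 2 gave 1 and ginkgetin replicate 3 gave 2. Over all tested genes these gave 4024 of 14328, 2159 of 14317, 1885 of 14407 and 1716 of 14431, in that order. With read counts in place of normalized values, edgeR called 0 of the 10, and 0% of all tested genes. DESeq2 called 3 of the 10, and 9.39% of all tested genes. These were Atf4 and Trib3 on the higher side, where it called 1.89% of all tested genes, and Chac1 on the lower side, where it called 7.51%.

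**Figure D1:**
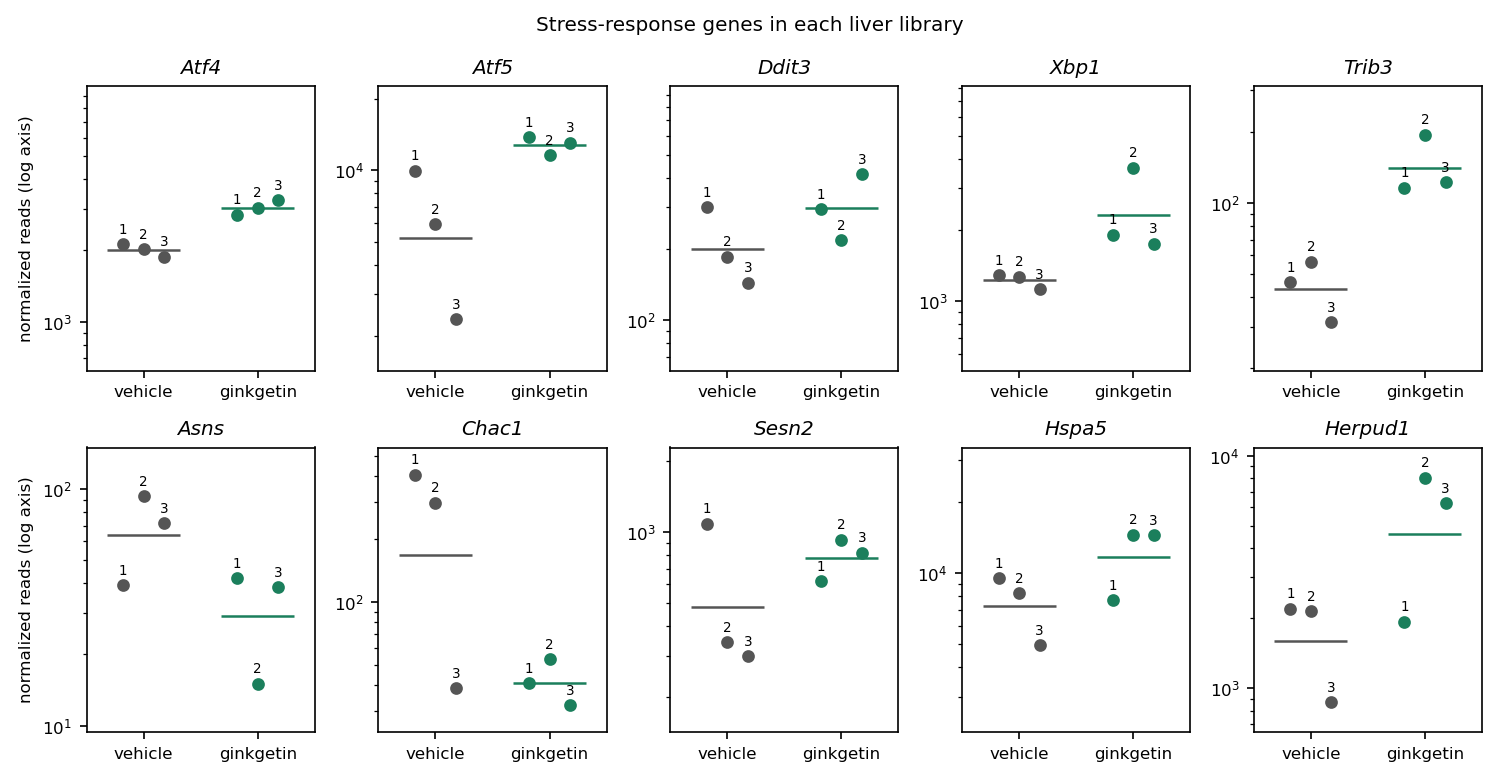
Normalized reads (log axis) of the 10 stress-response genes in each library, with vehicle on the left and ginkgetin on the right of each panel. Points are libraries labelled by replicate number and lines are geometric means, and each panel has its own axis. Trib3 ran from 31.3 to 56.6 with vehicle and from 116 to 194 with ginkgetin, while Chac1 in vehicle replicate 3, at 38.7, lay within the ginkgetin range.

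The transcription factors had higher means with ginkgetin. Atf4, the central factor of the integrated stress response, was at 2123, 2022 and 1881 normalized reads in vehicle replicates 1 to 3 and at 2828, 3037 and 3263 in ginkgetin replicates 1 to 3. On the authors' scaling, the libraries of each group lay close together and the groups did not overlap. Unscaled counts of this gene ran 1790, 2431 and 3064 across vehicle replicates 1 to 3. Ginkgetin replicates 1 to 3 held 2558, 2625 and 2638 such reads. Vehicle replicate 3 thus held the most of all 6 libraries, and no gap parted the groups. On the authors' scaling the change was 0.60 (SE 0.278, 95% interval -0.04 to 1.24, limma adjusted p = 0.268), a ratio of 1.51. In DESeq2 the adjusted p was 0.0386, and over the alternatives it ran from 0.0386 to 0.898, the last with equal library totals, where the change was 0.08. Without vehicle replicate 3 the change was 0.55.

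Atf5, a related factor, abundant in liver, that controls genes of mitochondrial stress, showed the widest vehicle spread among the factors. It had 9974, 5929 and 2343 normalized reads in vehicle libraries and 13780, 11602 and 13095 in ginkgetin libraries. Every ginkgetin library lay above the highest vehicle library, and vehicle replicate 3 was the lowest by far. The change was 1.31 (SE 0.581, 95% interval -0.03 to 2.64, limma adjusted p = 0.253), and 0.73 without vehicle replicate 3.

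Xbp1, whose mRNA IRE1 splices into the form that codes for the active factor, had 1286, 1270 and 1126 normalized reads in vehicle libraries. In ginkgetin replicates 1 to 3 it had 1912, 3668 and 1754. On this scaling the 3 vehicle values were nearly equal, all ginkgetin values were higher, and ginkgetin replicate 2 was far above the others of its group. Before scaling the reads were 1084, 1527 and 1835 with vehicle and 1729, 3170 and 1418 with ginkgetin, and the groups overlapped. The change was 0.91 (SE 0.340, 95% interval 0.13 to 1.70, limma adjusted p = 0.195), 0.58 without ginkgetin replicate 2 and 0.85 without vehicle replicate 3.

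Ddit3, which encodes the death-related factor CHOP, had 300, 185 and 144 normalized reads in vehicle libraries and 294, 219 and 414 in ginkgetin libraries. The groups overlapped, since vehicle replicate 1 lay above ginkgetin replicates 1 and 2. The change was 0.57 (SE 0.351, 95% interval -0.23 to 1.38, limma adjusted p = 0.375), an interval that includes 0. Leaving out either vehicle replicate 3 or ginkgetin replicate 3 gave 0.34, and leaving out vehicle replicate 1 gave 0.86.

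The targets of ATF4 did not move together. Trib3, a pseudokinase that feeds back on ATF4 and CHOP and can dampen insulin signalling in liver, had 46.3, 56.6 and 31.3 normalized reads in vehicle libraries and 116, 194 and 122 in ginkgetin libraries. The lowest ginkgetin library lay well above the highest vehicle library. The change was 1.67 (SE 0.380, 95% interval 0.80 to 2.54), a ratio of 3.18, with a limma adjusted p = 0.0976. Its unadjusted p was below 0.05 in all 15 alternatives, and its adjusted p ran from 0.00191 in DESeq2 to 0.302. With 1 library left out the change ran from 1.44 to 1.85, and it was 1.44 without vehicle replicate 3. These values rest on 39 to 168 reads per library.

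Chac1, which degrades glutathione and carries the same promoter motif as Trib3, went the other way. It had 406, 299 and 38.7 normalized reads in vehicle libraries and 40.9, 53.2 and 32.2 in ginkgetin libraries. Vehicle replicates 1 and 2 lay far above all other libraries, and vehicle replicate 3 lay among the ginkgetin values. The change was -2.0 (SE 0.807, 95% interval -3.86 to -0.14, limma adjusted p = 0.222). Without vehicle replicate 3 it was -3.05 (limma adjusted p = 0.0244, in a fit that called 112 genes), and without vehicle replicate 1 it was -1.37 (adjusted p = 0.298). The DESeq2 adjusted p over all 6 libraries was 0.0120. These values rest on 342, 359 and 63 reads with vehicle and on 37, 46 and 26 with ginkgetin.

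Asns, asparagine synthetase, the enzyme by which ATF4 activity is often read, had 39.1, 93.1 and 71.8 normalized reads in vehicle libraries and 42.0, 15.0 and 38.3 in ginkgetin libraries. Vehicle replicate 1 lay between the ginkgetin libraries, so the groups overlapped. The change of -1.11 (SE 0.542, 95% interval -2.36 to 0.13, limma adjusted p = 0.283) rested on 13 to 117 reads per library. Without vehicle replicate 1 it was -1.46, without ginkgetin replicate 2 it was -0.66 and without vehicle replicate 3 it was -1.03.

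Sesn2, sestrin 2, a stress protein that restrains the growth kinase mTORC1, had 1082, 342 and 298 normalized reads in vehicle libraries and 618, 927 and 818 in ginkgetin libraries. Vehicle replicate 1 was the highest of the 6 libraries and the other vehicle libraries were the lowest. The change was 0.69 (SE 0.471, 95% interval -0.39 to 1.78, limma adjusted p = 0.425). Without vehicle replicate 1 it was 1.28 (limma adjusted p = 0.0420, in a fit that called 753 genes), without vehicle replicate 2 it was 0.45 and without vehicle replicate 3 it was 0.35.

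The ER side was higher in ginkgetin replicates 2 and 3 and not in replicate 1. Hspa5, which encodes BiP, the main chaperone of the ER, had 9534, 8214 and 4961 normalized reads in vehicle libraries and 7698, 14551 and 14504 in ginkgetin libraries. Ginkgetin replicate 1 lay within the vehicle range. The change was 0.69 (SE 0.498, 95% interval -0.46 to 1.83, limma adjusted p = 0.451), 0.99 without ginkgetin replicate 1 and 0.41 without vehicle replicate 3.

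Herpud1, an ER membrane protein that organizes degradation of misfolded proteins and is itself no chaperone, followed the same order. It had 2192, 2141 and 870 normalized reads in vehicle libraries and 1930, 8040 and 6236 in ginkgetin libraries. Ginkgetin replicates 2 and 3 stood well above all other libraries and ginkgetin replicate 1 stood below vehicle replicates 1 and 2. The change was 1.52 (SE 0.609, 95% interval 0.12 to 2.92, limma adjusted p = 0.219), 2.15 without ginkgetin replicate 1 and 1.08 without vehicle replicate 3.

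**Figure D2:**
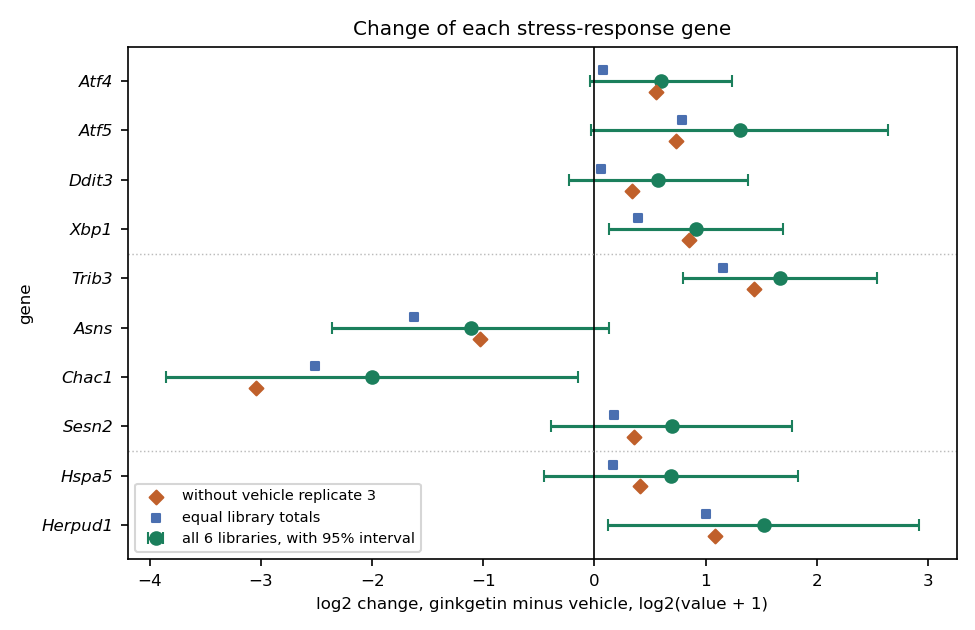
Change of each gene on the log2(value + 1) scale, ginkgetin minus vehicle. Circles with bars are limma estimates with 95% intervals over all 6 libraries, diamonds leave out vehicle replicate 3 and squares use equal library totals, and dotted lines part factors, ATF4 targets and the ER side. The intervals of Xbp1, Trib3 and Herpud1 lie above 0, that of Chac1 lies below 0, and the other 6 include 0.

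The choice of scaling moved the size of these changes and none of their signs. Equal library totals, under which the median of all genes lay at -0.53, gave 0.08 for Atf4, 0.06 for Ddit3, 0.17 for Sesn2 and for Hspa5, 0.39 for Xbp1, 0.78 for Atf5, 1.0 for Herpud1 and 1.16 for Trib3. On the lower side they gave -1.62 for Asns and -2.51 for Chac1. Quantile scaling gave 0.18 for Atf4, 0.04 for Hspa5, -0.68 for Asns and 2.01 for Trib3.

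The 4 ATF4 targets were set against Hspa5 and Herpud1 by the mean of their log2 values, each gene centred over the 6 libraries. The targets lay at 0.55, 0.40 and -0.67 in vehicle replicates 1 to 3 and at -0.12, -0.05 and -0.11 with ginkgetin. The pair on the ER side lay at -0.13, -0.26 and -1.27 with vehicle and at -0.38, 1.11 and 0.92 with ginkgetin. The targets minus the ER side came to 0.65 ± 0.05 (SD, n = 3) with vehicle and to -0.65 ± 0.79 (SD, n = 3) with ginkgetin, a difference of -1.29. The vehicle libraries were nearly equal in this measure, vehicle replicate 3 included, where both sets were low on the authors' scaling. Ginkgetin replicate 1, at 0.26, lay nearer to the vehicle libraries than to ginkgetin replicates 2 and 3, at -1.16 and -1.04. The mean of the targets hides opposite changes, since Trib3 and Sesn2 had higher means and Asns and Chac1 lower ones. The genes were grouped with earlier results known, so this is a description with no test, and with quantile scaling the difference was -0.51.

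**Figure D3:**
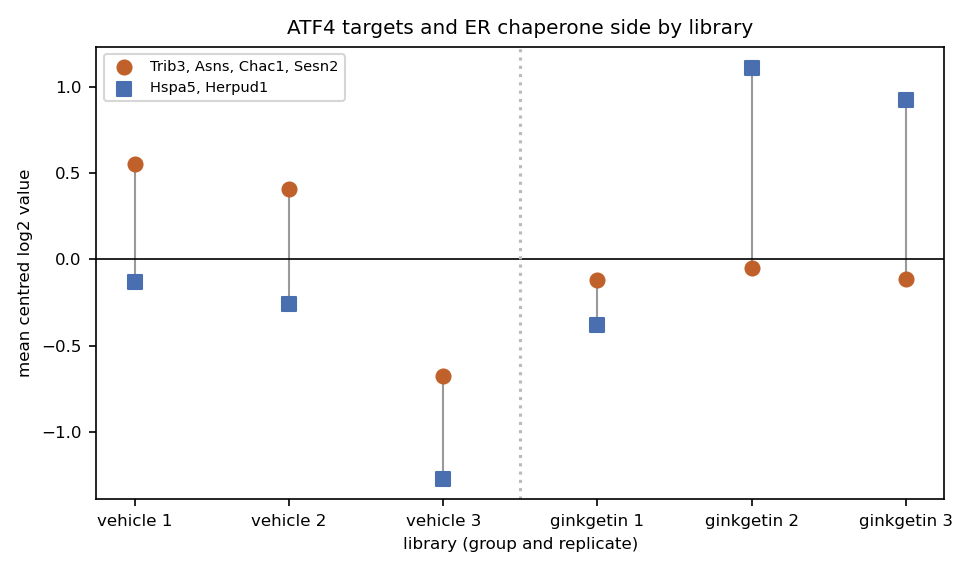
Mean of centred log2(value + 1) of the 4 ATF4 targets (circles) and of Hspa5 and Herpud1 (squares) in each library, joined by a line. The targets lie above the ER side in the 3 vehicle libraries and in ginkgetin replicate 1, and below it in ginkgetin replicates 2 and 3.

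Among 85 other tested genes of these pathways, of 90 listed, 59 had higher means with ginkgetin, at a median change of 0.30 and of 0.26 without vehicle replicate 3, and with equal library totals 28 did. That scaling shifted the median of all tested genes to -0.53, and the 85 genes lay 0.31 above it. As it moves all genes by nearly the same amount, this distance could hardly change. With quantile scaling 50 of the 85 had higher means, at a median of 0.11 against 0.07 over all tested genes. At an unadjusted p below 0.05 in limma 11 were higher, where 7% of all tested genes were, and 7 lower, where 13.2% were. Of the 85, 0 passed the adjusted threshold in limma, which 0.0137% of all genes did, or in edgeR, which 0% did. In DESeq2 3 were higher and 6 lower at an adjusted p of 0.05, where 1.89% and 7.51% of all tested genes were. The count at an unadjusted p below 0.05 was 18 in either direction with all libraries. Leaving out vehicle replicates 1, 2 and 3 in turn gave 28, 9 and 11, and leaving out ginkgetin replicates 1, 2 and 3 gave 22, 8 and 11. Over all tested genes the count was 2963 of 14639 with all libraries. Leaving out 1 library in the same order gave 4024, 2159 and 2208, and 2783, 1885 and 1716, of 14317 to 14431 tested genes. Without overlap between groups, 16 lay higher and 9 lower, where 11.4% and 16.1% of all tested genes did.

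Of 12 genes for the eIF2 kinases, eIF2 and its exchange factor, and the phosphatase subunits that reverse the response, 9 had higher means, at a median of 0.29 and of 0.18 without vehicle replicate 3, and 2 did with equal library totals. Ppp1r15b (1.06, SE 0.368, limma adjusted p = 0.178) directs the phosphatase to eIF2 at rest. It was the 1 gene of the 12 at an unadjusted p below 0.05, on the higher side, where 7% of all tested genes were. It had 1704, 1096 and 799 normalized reads in vehicle libraries and 1753, 2500 and 3110 in ginkgetin libraries, so ginkgetin replicate 1 lay just above vehicle replicate 1, and the change was 0.81 without vehicle replicate 3. Eif2ak4, which encodes the kinase GCN2, was at -0.67 (SE 0.298) and did not overlap, at 214, 279 and 205 with vehicle and at 104, 157 and 186 with ginkgetin. Eif2b5, a subunit of the eIF2 exchange factor, was at 0.35. Without vehicle replicate 3 these were -0.75 and 0.36.

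The list of other ATF4 and CHOP targets was split between high and low. Of 23 tested genes 14 had lower means, at a median of -0.71 and of -0.23 without vehicle replicate 3. At an unadjusted p below 0.05 in limma 7 were lower and 2 higher, where 13.2% and 7% of all tested genes were. Without vehicle replicate 3 these counts were 6 and 1, where 1384 and 824 of 14332 tested genes were lower and higher. Phgdh, the entry enzyme of serine synthesis, had 97.3, 326 and 220 normalized reads in vehicle libraries and 29.9, 35.9 and 14.8 in ginkgetin libraries (-2.87, SE 0.539, limma adjusted p = 0.0804). Psat1, the next enzyme of that path, was at 46.3, 140 and 197 against 23.2, 16.2 and 19.8 (-2.42, SE 0.568, limma adjusted p = 0.101). In both genes the groups did not overlap, and the changes were -2.77 and -1.99 without vehicle replicate 3.

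Fgf21, a liver hormone induced by ATF4 and also by PPAR-alpha, went with Trib3. It had 98.5, 164 and 62.6 normalized reads in vehicle libraries and 514, 253 and 358 in ginkgetin libraries (1.83, SE 0.410, limma adjusted p = 0.0963). The groups did not overlap, and without vehicle replicate 3 the change was 1.49. The other genes of this list at an unadjusted p below 0.05, named here after their values were seen, were Xpot (0.60), a tRNA export factor, on the higher side and 5 on the lower side. These 5 were Vldlr (-2.21), a lipoprotein receptor, Slc7a1 (-2.11), a transporter of basic amino acids, Tnfrsf10b (-1.76), a death receptor, Ddit4 (-1.44), an inhibitor of mTORC1, and Mthfd2 (-1.37), a mitochondrial folate enzyme. With vehicle replicate 3 left out Ddit4 was at -0.84, Xpot at 0.47, Vldlr at -1.68, Slc7a1 at -1.87, Tnfrsf10b at -1.77 and Mthfd2 at -1.2. Cholangiocyte markers, also lower in 8 of 8 genes, summed to 2049, 2443 and 21056 with vehicle and to 784, 395 and 319 with ginkgetin. In vehicle replicate 3, 18034 of this sum was Spp1. The other 7 summed to 1437, 2072 and 3022 with vehicle and to 558, 348 and 304 with ginkgetin, and the part of these markers in the lower values was not tested. None of these 8 markers was at 0 in any library.

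The tRNA synthetases, which ATF4 induces as a group in cell culture, lay on the higher side. Of 12 genes 10 had higher means, at a median of 0.34 and of 0.31 without vehicle replicate 3, and 5 did with equal library totals. Aars (0.82, SE 0.337, limma adjusted p = 0.227), for alanine, had 2281, 1885 and 1219 normalized reads against 2617, 3439 and 3229. It was the 1 gene of the 12 at an unadjusted p below 0.05, on the higher side, where 7% of all tested genes were. Tars (0.90), for threonine, and Iars (0.53), for isoleucine, followed by p. Their changes without vehicle replicate 3 were 0.57 for Aars, 0.53 for Tars and 0.32 for Iars.

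Among the sensors of ER stress, Ern1, which encodes IRE1, had 539, 512 and 214 normalized reads in vehicle libraries and 757, 774 and 666 in ginkgetin libraries. The groups did not overlap. The change was 0.91 (SE 0.359) at a limma adjusted p of 0.217, and leaving out vehicle replicate 3 gave 0.48. Creb3l3, a hepatocyte factor released from the ER like ATF6, was at 1.13 (SE 0.668) and at 0.35 without vehicle replicate 3, where it stood at 1450 against 6356 and 8520 in the other vehicle libraries. Mbtps1, a protease that takes part in the release of both factors, was at -0.21 and at -0.22 without vehicle replicate 3. Of the 6 genes 3 had higher means, at a median of 0.11 and of 0.10 without vehicle replicate 3, and 2 did with equal library totals.

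Chaperones and folding enzymes of the ER had higher means in 16 of 19 genes, at a median of 0.41 and of 0.34 without vehicle replicate 3. With equal library totals 7 of 19 did, at a median 0.42 above that of all genes, a distance this scaling can hardly change. With quantile scaling 11 of 19 did, at a median of 0.15 against 0.07 over all tested genes. Dnajb9, a BiP partner and a target of XBP1, had 517, 448 and 398 normalized reads in vehicle libraries and 531, 1366 and 1301 in ginkgetin libraries (1.12, SE 0.374, limma adjusted p = 0.170). Dnajc3, an inhibitor of PERK and BiP partner, was at 2131, 1457 and 550 against 2175, 2926 and 2896 (1.14, SE 0.486, limma adjusted p = 0.239). Pdia4, a disulfide isomerase, was at 0.86 (SE 0.417). Without vehicle replicate 3, the lowest library for Dnajc3, that gene was at 0.58, Pdia4 at 0.58 and Dnajb9 at 1.03. Ginkgetin replicate 1 was the lowest ginkgetin library in 18 of the 19 genes and lay below the highest vehicle library in 15.

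Genes of ER-associated degradation gave the highest median of these 6 pathway lists, 0.53, with 12 of 13 means higher, and 0.41 without vehicle replicate 3. With equal library totals 7 of 13 were higher, and with quantile scaling 9 of 13, at a median of 0.38 against 0.07 over all tested genes. Edem1, a lectin that marks misfolded glycoproteins and a target of XBP1, had 782, 832 and 325 normalized reads in vehicle libraries and 692, 4034 and 3465 in ginkgetin libraries. Ginkgetin replicates 2 and 3 stood far above the rest while replicate 1 lay within the vehicle range, as for Herpud1 (1.84, SE 0.683, limma adjusted p = 0.194). Sel1l (0.90, SE 0.363, limma adjusted p = 0.223), a scaffold of the ubiquitin ligase, and Nploc4 (0.65, SE 0.273, limma adjusted p = 0.235), which helps extract proteins from the membrane, followed by p. Derl2 (0.82), a channel protein named after its value was seen, was the 1 other gene at an unadjusted p below 0.05. That made 4 of the 13 higher at such a p, where 7% of all tested genes were. Without vehicle replicate 3, 0 of the 13 had such a p, where 2208 of 14332 tested genes did. The changes were then 0.50 for Derl2, 1.4 for Edem1, 0.67 for Sel1l and 0.47 for Nploc4. On the authors' scaling, ginkgetin replicate 1 was the lowest of its group in 11 of 13 genes, and vehicle replicate 3 the lowest of the vehicle group in 11.

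**Figure D4:**
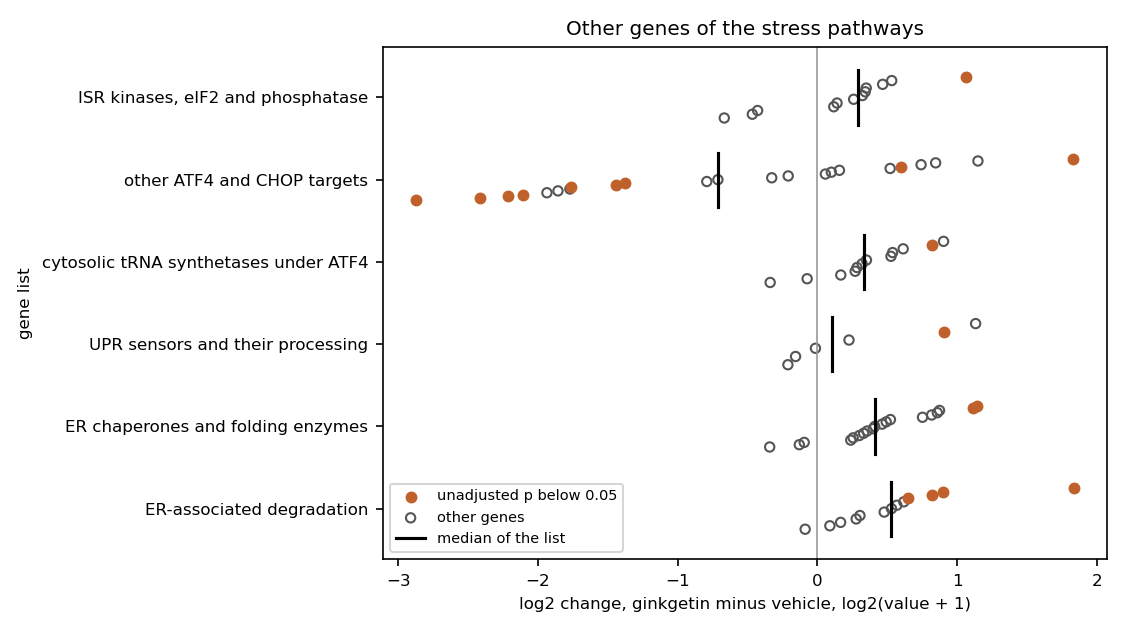
Change on the log2(value + 1) scale, ginkgetin minus vehicle, of 85 other genes in 6 lists. Each point is a gene, filled where its unadjusted limma p was below 0.05, and black bars are list medians. Other ATF4 and CHOP targets spread from -2.87 to 1.83 around a median of -0.71, while ER chaperones and degradation genes lie mostly above 0, although with equal library totals 7 of 19 and 7 of 13 do.

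On the authors' scaling, vehicle replicate 3 and ginkgetin replicate 1, in which ER genes were low, each had the lowest summed hepatocyte markers of its group. Ginkgetin replicate 1 lay within the vehicle range. Before scaling, Hspa5 had 8037, 9877 and 8083 reads in vehicle replicates 1 to 3, and Herpud1 had 1848, 2574 and 1417. Vehicle replicate 3 was then not the lowest of its group for Hspa5, while for Herpud1 it was. Alb, for albumin, stood at 1498120, 914420 and 238603 normalized reads in vehicle replicates 1 to 3 and at 1083190, 1968100 and 1850560 in ginkgetin replicates 1 to 3. Hepatocyte markers had higher means with ginkgetin in 10 of 10 genes (8 with equal library totals and 7 with quantile scaling), at a median of 1.25 and of 0.51 without vehicle replicate 3, and 0 of the 10 were at 0 in a library. The part of this difference in the levels of Hspa5, Herpud1, Atf5 and Creb3l3 was not tested.

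Markers of other liver cells differed between groups in some lists and overlapped in others. Stellate cell markers, led by Col3a1, had lower means in 7 of 8 genes, at a median of -2.32 and of -1.27 without vehicle replicate 3. Macrophage markers, led by Gpnmb, had lower means in 5 of 8, at a median of -0.95 and of -0.36 without that library, with Trem2 at 0 in ginkgetin replicates 2 and 3. Neutrophil markers, led by S100a9, had lower means in 5 of 5 genes, and Mpo, Camp and Elane were at 0 in at least 1 ginkgetin library. They summed to 352 to 1278 with vehicle and to 49.8 to 244 with ginkgetin. Lymphocyte markers, led by Cd8a, summed to 191 to 514 and to 185 to 275, and endothelial markers, led by Lyve1, to 1613 to 2812 and to 2321 to 3381. Of these 2 lists no gene was at 0 in a library.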

How the data were processed

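The data are 1 table of genes by 6 liver libraries. Libraries came from total RNA with a SMARTER kit, per the labels' protocols, and reads were placed on mRatBN7.2 per the submitters' processing notes. Aligner, counter, annotation and strand setting: not given in the sources used here. Reads of overlapping or near-identical genes therefore cannot be told apart. The deposited values are a signal, reads per gene divided by 1 factor per library by the authors. Dividing by the lowest value above 0 gave whole numbers, within 0.02, for 99.7% of values in each library, and the factors lay within 0.147% of DESeq2 size factors, so whole reads were recovered by rounding. Ginkgetin columns were matched by name and number. The other 3 carry the letters TAA, absent from the labels, and were taken as vehicle replicates 1 to 3, and every direction rests on this. The labels do not say that replicates are separate animals, so p values measure the spread between samples. Duplicated libraries were not found (chi-square per degree of freedom at least 49.9).

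Groups were compared with limma 3.58.1 (R 4.3.3) on log2(value + 1), with trend and robust moderation, for the 14639 genes at 1 or more in at least 3 libraries, two-sided, with Benjamini-Hochberg adjustment over all of them at 0.05. The alternatives were edgeR 4.0.16 and DESeq2 1.42.0 on recovered reads, 2 other scalings, 2 other added values, 2 other filters, a replicate block and leaving out each library, 15 in all. The procedure was tested on simulated data. The 10 genes, the lists and the tests were chosen with earlier results of these data known. Named genes were the 10, the 3 with the smallest p of each pathway list, and of each marker list the gene with the highest mean and any at 0 in a library. The tRNA synthetases and Ufd1l were matched by older symbols.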

Additional observations from a re-analysis of the deposited data

How the results depend on the processing

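Each of the 10 genes kept the sign of its change in all 15 alternatives. For the 4 whose groups do not overlap on the authors' scaling, leaving out a library could not turn the sign. For the 10 genes the other filters and the replicate block gave the same estimates, and the other added values nearly the same, so these could not turn it either. Over all genes the count past the adjusted threshold, 2 in limma, was 0 in edgeR, 1375 in DESeq2, 1 with quantile scaling, 94 with equal library totals and 5 with 5 added before logs, and 0 to 753 with 1 library left out. Where it was 0, edgeR had 2893 genes at an unadjusted p below 0.05. For the 10 genes that count, 0 in limma with 4 at an unadjusted p below 0.05, was 3 in DESeq2 and 0 to 1 with 1 library left out. Their count at an unadjusted p below 0.05 was 1 with quantile scaling and 1 to 7 with 1 library left out. For the 85 other genes it was 10 with quantile scaling and 8 to 28 with 1 library left out. Over all tested genes it was 2514 with quantile scaling and 1716 to 4024 with 1 library left out. The targets minus the ER side was -0.51 with quantile scaling in place of -1.29, and the cause was not tested. With the replicate number as a replicate block, 0 genes passed in place of 2, with 2382 at an unadjusted p below 0.05, and 11 of the 85 other genes had such a p in place of 18. Same-numbered libraries did not deviate together (correlations across genes of -0.16, 0.03 and -0.21), and not every library correlated best with its own number. With 3 libraries per group, such correlations cannot tell whether the numbers pair the samples. By total reads over the 6 libraries Asns (344), Trib3 (530) and Chac1 (873) have the least depth among the 10, and their lowest libraries held 13, 39 and 26 reads.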
